A study of Mus musculus with 27 samples.

Results

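Hypothalamus was set against cerebral cortex in 4 small-RNA libraries, 2 from each tissue, out of 27 samples in the series. The miRNAs described are the 355 that reached a value of at least 100 in at least 2 of the 4 libraries, out of 726 listed in them. Each library was scaled by the authors to a total of 10000000, and levels are given as CPM, the value divided by 10. All 4 libraries came from C57BL/6 mouse brain tissue with no treatment named. The tissue was frozen in liquid nitrogen and total RNA was taken with Trizol. Both were pieces of brain tissue, so each library mixes neurons, glia and vessels. The labels do not say whether the 2 libraries of a tissue came from separate animals, and give no age, sex or time of day. The p-values therefore measure only the spread between these libraries, which may be technical. The 2 libraries of the suprachiasmatic nucleus (SCN), a small nucleus of the hypothalamus, are not compared here. They entered the model to help estimate that spread, and they helped set the scalings other than the deposited one.

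A miRNA is a short RNA cut from a hairpin precursor. A strand, or arm, of the hairpin guides a protein complex to messenger RNAs, and names ending in 5p and 3p give the arm. Bases 2 to 8 of the miRNA, the seed, pair with the target, so miRNAs with the same seed can share targets, and many brain miRNAs are made from several hairpin copies or from introns of other genes.

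Some of the miRNAs described below are printed as RNA, 5′ to 3′, from RefSeq (GRCm38.p6), with the seed in capitals. Those up to miR-770-5p stood higher in hypothalamus and the others lower. miR-34b-3p, miR-34c-3p and miR-216a-5p reached the minimum of 100 through hypothalamus alone, and miR-128-1-5p and miR-128-2-5p through cortex alone. The set is given to show which of them share a seed.
miR-7a-5p: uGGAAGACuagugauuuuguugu
miR-7b-5p: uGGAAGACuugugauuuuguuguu
miR-298-5p: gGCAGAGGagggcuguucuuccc
miR-1264-3p: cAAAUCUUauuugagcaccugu
miR-34b-3p: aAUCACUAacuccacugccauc
miR-34c-3p: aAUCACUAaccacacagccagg
miR-204-5p: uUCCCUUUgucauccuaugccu
miR-216a-5p: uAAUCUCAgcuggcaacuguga
miR-770-5p: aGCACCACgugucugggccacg
miR-128-3p: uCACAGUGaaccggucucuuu
miR-128-1-5p: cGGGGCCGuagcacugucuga
miR-128-2-5p: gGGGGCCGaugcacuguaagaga
miR-132-3p: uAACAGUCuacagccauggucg
miR-212-3p: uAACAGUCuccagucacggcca
miR-221-3p: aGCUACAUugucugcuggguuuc
miR-222-3p: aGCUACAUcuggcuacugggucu
miR-9-5p: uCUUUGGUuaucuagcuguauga
miR-7a-5p and miR-7b-5p share their seed and differ at 1 of the bases they have in common (A10U, counted from the 5′ end). miR-34b-3p and miR-34c-3p share a seed, as do miR-132-3p and miR-212-3p, miR-221-3p and miR-222-3p, and the 5p strands of the miR-128 hairpins.

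The hypothalamus libraries held 2282921 and 2220098 miRNA reads, and the cortex libraries 2523334 and 1946998. They listed 634 and 623 miRNAs in hypothalamus, against 589 and 582 in cortex. A miRNA with no read could still stand at 1.32 and 1.35 CPM in the hypothalamus libraries or 1.19 and 1.54 CPM in the cortex libraries, the level of 3 reads, which covers counting error only. The members held at least 99.92% of every library's signal. Of the 355, 301 reached the minimum in all 4 libraries, 25 passed through the hypothalamus libraries alone and 5 through the cortex libraries alone. The minimum favoured the tissue in which these 30 are high, so their values are given as a description with no test, and the counts given for families and lists leave them out. The other 24 reached it in a library of each tissue, but not in all 4. They stay in the counts, though some of them also needed the tissue in which they are high. Just inside the minimum of 10 CPM stood miR-98-3p, with 10 and 10.3 CPM in hypothalamus and 3.9 and 7.1 CPM in cortex. Just outside it stood miR-331-5p, with 16.6 and 9.9 CPM in hypothalamus and 4.3 and 8.2 CPM in cortex. Levels correlated between replicates across miRNAs with r of 0.994 in hypothalamus and 0.989 in cortex on the log2 scale, where miRNAs are not independent replicates.

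With the deposited values, in which each library sums to the same total, 207 of 355 miRNAs passed in limma (58.3%; Benjamini-Hochberg adjusted p under 0.05). In hypothalamus 147 of them stood higher (41.4%) and 60 lower (16.9%). The median log2 change of all 355 was 0.37. Scaling by the median ratio, which sets the typical miRNA equal, moved that median down by 0.42, to -0.05, and left 190 calls (53.5%), 87 higher (24.5%) and 103 lower (29.0%). A miRNA is therefore said to have risen or fallen only where it passed in both scalings, which held for 87 higher (24.5%) and 60 lower (16.9%). These were all the rises with median-ratio scaling and all the falls on the deposited scale. Since median-ratio scaling moved the changes down, it was no added check for falls. Without the 30 that passed the minimum through 1 tissue alone, 68 of 325 were higher and 57 lower. The counts given below for families and lists are to be read beside these shares. Of the 87 and 60, 55 were at least 2-fold higher and 24 at least 2-fold lower in both scalings. The other values quoted are on the deposited scale. The 2 libraries of hypothalamus lay wholly above or wholly below those of cortex for 301 miRNAs (84.8%), with hypothalamus above in 208 (58.6%) and below in 93 (26.2%).

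The miRNAs that rose made up 22.8% ± 0.505 of the signal in hypothalamus and 7.40% ± 0.221 in cortex (SD, n = 2 each). Those that fell made up 34.9% ± 0.431 in hypothalamus and 56.2% ± 0.818 in cortex. These miRNAs were chosen by their calls in the same libraries, so the direction of the shares was fixed and only their size is described. The sums include miRNAs that passed the minimum through 1 tissue alone. In a mixed tissue, a change in the number of cells that make a miRNA and a change in its amount per cell cannot be told apart.

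**Figure D1:**
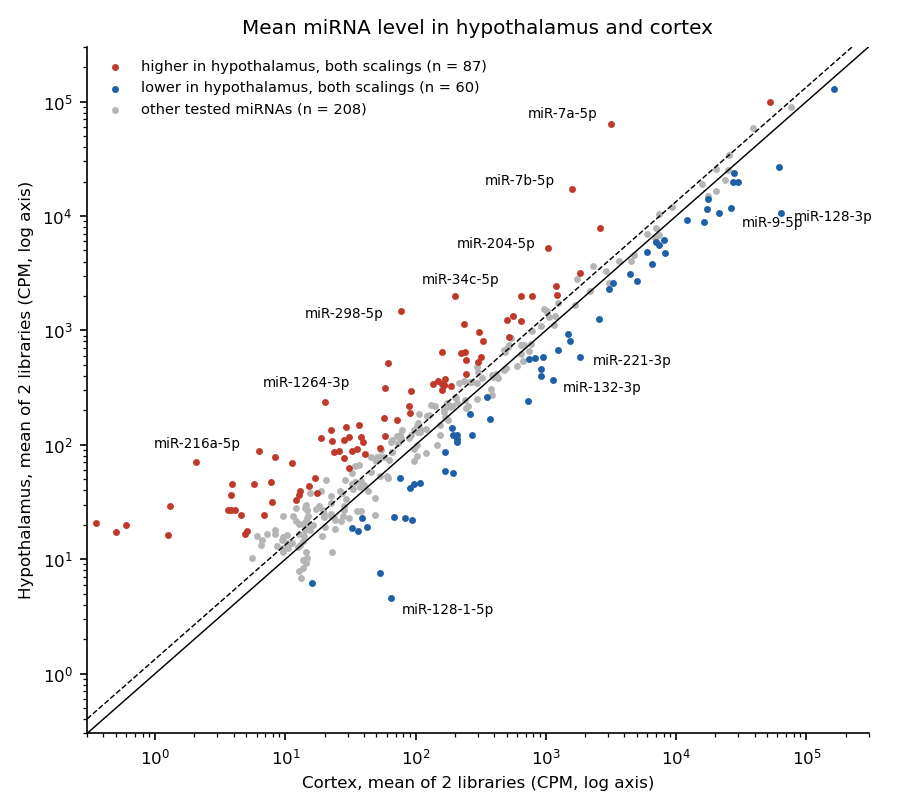
Mean level of the 355 miRNAs in hypothalamus (vertical axis) and cortex (horizontal axis), each the mean of 2 libraries in CPM on log axes. Red points are the 87 miRNAs that rose in both scalings, blue points the 60 that fell and grey points the others; the solid line marks equal levels and the dashed line the shift of 0.42 log2 between scalings. miR-7a-5p stands far above both lines and miR-128-3p far below.

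The miR-7 family gave the largest difference in amount. miR-7, known as a miRNA of neuroendocrine cells and of the hypothalamus, is made from the hairpins Mir7-1, Mir7-2 and Mir7b, and the first of these lies in an intron of Hnrnpk. miR-7a-5p had 63115 and 63818 CPM in hypothalamus, against 2829 and 3509 CPM in cortex. miR-7b-5p had 16814 and 17540 CPM in hypothalamus, against 1404 and 1786 CPM in cortex. Both hypothalamus libraries stood far above both cortex libraries for each. miR-7a-5p was 20-fold higher in hypothalamus (log2 change 4.33 ± 0.11 SE, adjusted p = 9.1e-09). The rise of miR-7b-5p was 10.8-fold (log2 change 3.44 ± 0.12 SE, adjusted p = 5.7e-08). With 1 base between them, reads could be divided wrongly between the pair, but their sum does not depend on that. miRNAs with the seed GGAAGAC, which were these 2, together had 79930 and 81360 CPM in hypothalamus, against 4232 and 5295 CPM in cortex, 16.9-fold higher.

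The other strands of the miR-7a hairpins differ in sequence, so each belongs to 1 copy. They are given with the seed in capitals.
miR-7a-1-3p: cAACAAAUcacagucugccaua
miR-7a-2-3p: cAACAAGUcccagucugccaca
miR-7a-1-3p comes from Mir7-1 (chromosome 13, 58392800 to 58392821, minus strand) and miR-7a-2-3p from Mir7-2 (chromosome 7, 78888335 to 78888356, plus strand). Between them 3 bases differ (A7G, A10C and U21C, counted from the 5′ end of miR-7a-1-3p). miR-7a-2-3p had 43.8 and 47.3 CPM in hypothalamus, against 2.70 and 5.10 CPM in cortex, 11.7-fold higher, and passed the minimum through hypothalamus alone. miR-7a-1-3p had 28.0 and 24.3 CPM in hypothalamus, against 33.7 and 36.9 CPM in cortex, and was not called (log2 change -0.43 ± 0.26 SE, adjusted p = 0.18), while median-ratio scaling called it lower (-0.85, adjusted p = 0.023). Copy 1 over copy 2 was 0.639 and 0.514 in hypothalamus, against 12.5 and 7.24 in cortex. This ratio within a library does not depend on scaling, and its log2 change was -4.01 ± 0.34 SE. It is given with no test, since miR-7a-2-3p entered through hypothalamus alone.

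The same ratio was taken for the other 4 pairs of copy-specific strands, and these ratios, that of miR-7a included, were chosen after the values were seen. miR-129-1-3p had 23.2 and 22.5 CPM in hypothalamus, against 79.6 and 85.2 CPM in cortex, and fell 3.61-fold. miR-129-2-3p had 244.1 and 283.0 CPM in hypothalamus, against 190.3 and 209.1 CPM in cortex, and was not called (adjusted p = 0.056). Copy 1 over copy 2 of miR-129 was 0.0950 and 0.0795 in hypothalamus, against 0.418 and 0.407 in cortex, lower by a log2 value of -2.24 ± 0.20 SE (adjusted p = 9.5e-05 over 86 ratios in limma). These 2 strands are near-identical, so the division of reads between them is uncertain. The ratio of the miR-125b copies did not pass in limma (adjusted p = 0.082), and those of miR-128 and miR-24 pair strands that entered through cortex alone.

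**Figure D2:**
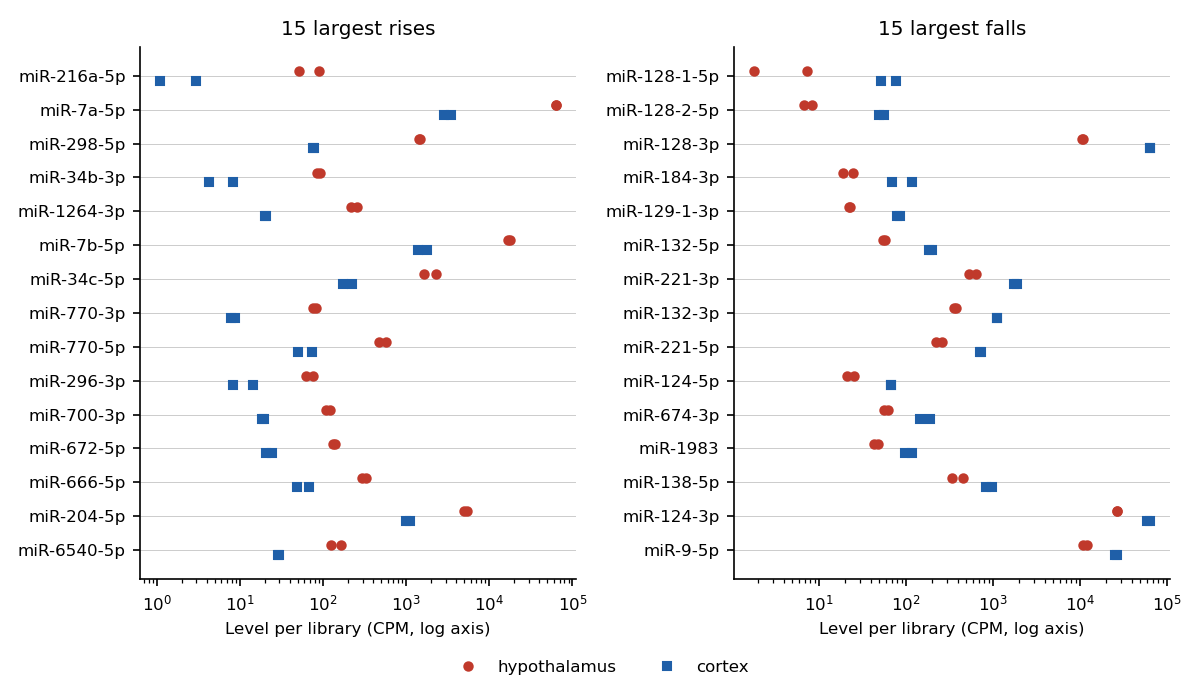
Level in each of the 4 libraries (CPM, log axis) of the 15 largest rises (left) and the 15 largest falls (right), with hypothalamus as red circles and cortex as blue squares. In all 30 the 2 hypothalamus libraries lie on one side of the 2 cortex libraries, which the choice of these miRNAs required, and 3 on the left and 2 on the right passed the minimum through 1 tissue alone.

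Of the miRNAs at the imprinted Gnas locus and inside Htr2c, each one counted rose. Mir298 (chromosome 2, 174267504 to 174267585, minus strand) and Mir296 (174267047 to 174267125) lie at the Gnas locus, which encodes a G protein subunit. miR-298-5p had 1448 and 1482 CPM in hypothalamus, against 78.1 and 75 CPM in cortex. It rose 19.1-fold (log2 change 4.26 ± 0.12 SE, adjusted p = 2.2e-08). miR-296-3p rose 6.14-fold and miR-296-5p 3.38-fold, so that 3 of 3 tested miRNAs of this list rose, with a median log2 change of 2.65. Of these, miR-296-3p stood at 8.3 and 14.3 CPM in cortex, so it needed a hypothalamus library to pass the minimum of 10 CPM.

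Htr2c is the gene of a serotonin receptor that acts in feeding circuits. Its intron miRNAs rose in all 3 strands that reached the minimum in a cortex library too. Another 2, miR-1264-5p and miR-448-5p, reached it through hypothalamus alone, and a further 4 listed strands stayed under the minimum level. miR-1264-3p had 216.9 and 256.4 CPM in hypothalamus, against 20.6 and 20 CPM in cortex, 11.7-fold higher (log2 change 3.53 ± 0.17 SE, adjusted p = 4.6e-07). miR-1298-3p rose 4.72-fold and miR-1298-5p 6.19-fold. The second stood at 10.3 and 5.1 CPM in cortex, so it needed a hypothalamus library to pass the minimum of 10 CPM. miR-1264-5p had 23.6 and 25.2 CPM in hypothalamus, against 3.5 and 5.6 CPM in cortex. miR-448-5p had 22.7 and 17.1 CPM in hypothalamus, against 0.70 and 0.50 CPM in cortex. Since those cortex values lie below the level of 3 reads, no fold is given. All listed strands of this intron, those under the minimum included, stood at 436.9 and 463.8 CPM in sum in hypothalamus, against 56.3 and 60.4 CPM in cortex.

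The miR-34 family, whose miR-34b and miR-34c are known from ciliated cells and neurons, split by member: miR-34c-5p rose and miR-34a-5p fell, while miR-34b-3p and miR-34c-3p passed the minimum through hypothalamus alone. miR-34b and miR-34c are made from neighbouring hairpins on chromosome 9 (51103034 to 51103645, minus strand). miR-34c-5p had 2311 and 1664 CPM in hypothalamus, against 222.8 and 176.7 CPM in cortex, 9.95-fold higher (log2 change 3.30 ± 0.23 SE, adjusted p = 7.2e-06). miR-34b-3p had 92.4 and 84.7 CPM in hypothalamus, against 4.3 and 8.2 CPM in cortex, 14.2-fold higher. miR-34c-3p had 28.0 and 30.2 CPM in hypothalamus, against 1.1 and 1.5 CPM in cortex. miR-34a-5p, made from a separate gene on chromosome 4, had 53 and 30.6 CPM in hypothalamus, against 93.1 and 88.8 CPM in cortex. It fell (log2 change -1.17 ± 0.34 SE, adjusted p = 0.017), but did not pass without hypothalamus replicate 2 (-0.78, adjusted p = 0.095), cortex replicate 1 (adjusted p = 0.083) or cortex replicate 2 (adjusted p = 0.070), or with no minimum level (adjusted p = 0.066).

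miR-204-5p, best known from the retinal pigment epithelium and choroid plexus, lies in an intron of Trpm3 on chromosome 19. It had 5010 and 5458 CPM in hypothalamus, against 1101 and 989 CPM in cortex, with no overlap, and was 5.01-fold higher (log2 change 2.33 ± 0.11 SE, adjusted p = 4.6e-07). miR-211-5p, which has the same seed, stayed under the minimum level, and the 2 together had 5018 and 5461 CPM in hypothalamus, against 1108 and 990.1 CPM in cortex. miR-182-5p, miR-183-5p and miR-96-5p, a cluster of sensory organs, rose 3.69-fold, 3.04-fold and 2.58-fold. miR-200a-3p and miR-200b-3p, known from epithelia, rose 2.70-fold and 3.03-fold, the second not passing under quantile normalization (adjusted p = 0.056), while miR-141-3p and miR-375-3p did not pass (adjusted p = 0.071 and 0.076 in limma). That list had 2 of 4 tested strands called, and 4 without cortex replicate 2.

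miR-216a-5p, known from pancreatic acinar cells, stood first among the 15 rises of the library plot and passed the minimum through hypothalamus alone. It had 89.8 and 51.3 CPM in hypothalamus, against 1.1 and 3.0 CPM in cortex. Its value in cortex replicate 1 lies below the level of 3 reads, so no fold is given. The fitted log2 change was 5.14 with all libraries, 4.45 without cortex replicate 1 and 5.82 without cortex replicate 2. miR-216b-5p and miR-217-5p, named after their values were seen, are made from the same stretch of chromosome 11 and also passed through hypothalamus alone. miR-216b-5p had 19.7 and 22 CPM in hypothalamus, against 0.70 and 0 CPM in cortex, and miR-217-5p had 20.1 and 14.4 CPM, against 0 and 1.0 CPM. miR-135a-5p, a brain miRNA, had 1226 and 1034 CPM in hypothalamus, against 225.9 and 244.0 CPM in cortex, 4.81-fold higher. Its copy-specific strand miR-135a-2-3p, from an intron of the long noncoding RNA gene Rmst, was 7.95-fold higher and passed through hypothalamus alone, and miR-135a-1-3p from the other copy was listed at 0 in both hypothalamus libraries and at 0.70 and 1.5 CPM in cortex.

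The falls were led by miR-128, a miRNA of forebrain neurons made from introns of R3hdm1 (Mir128-1, chromosome 1) and Arpp21 (Mir128-2, chromosome 9). miR-128-3p had 10840 and 10553 CPM in hypothalamus, against 64648 and 63921 CPM in cortex, 6.01-fold lower (log2 change -2.59 ± 0.11 SE, adjusted p = 2.2e-07). The 5p strands differ between the copies, and both passed the minimum through cortex alone. miR-128-2-5p had 8.30 and 6.70 CPM in hypothalamus, against 56.6 and 49.3 CPM in cortex, 7.06-fold lower. miR-128-1-5p had 7.40 and 1.80 CPM in hypothalamus, against 52.3 and 78.1 CPM in cortex, 14.2-fold lower. The size of the last rests on few hypothalamus reads: its log2 change of -4.08 became -5.07 without hypothalamus replicate 1 and -3.09 without hypothalamus replicate 2.

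miR-132 and miR-212, which neuronal activity induces through CREB, come from 1 locus on chromosome 11 (75173388 to 75173747, plus strand), and 4 of 4 strands fell, with a median log2 change of -1.25. miR-132-3p had 376.0 and 361.0 CPM in hypothalamus, against 1124 and 1132 CPM in cortex, 3.06-fold lower (log2 change -1.61 ± 0.13 SE, adjusted p = 1.3e-05). miR-132-5p was 3.47-fold lower, miR-212-5p 1.86-fold lower and miR-212-3p 1.71-fold lower. miR-132-3p and miR-212-3p share the seed AACAGUC, and together they had 500 and 479 CPM in hypothalamus, against 1335 and 1334 CPM in cortex.

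miR-221 and miR-222, a pair on chromosome X (19146294 to 19146971, minus strand) known for repressing the cell cycle inhibitor p27, fell in 3 of 3 tested strands. miR-221-3p had 542.2 and 636.9 CPM in hypothalamus, against 1883 and 1781 CPM in cortex, 3.11-fold lower (log2 change -1.64 ± 0.15 SE, adjusted p = 2.6e-05). miR-221-5p was 2.98-fold lower and miR-222-3p 1.83-fold lower. Their shared seed GCUACAU stood at 1171 and 1346 CPM in hypothalamus, against 3060 and 3060 CPM in cortex.

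miR-124 and miR-9 are widely used as miRNA markers of neurons and of neural progenitors, and both were abundant in all 4 libraries. miR-124-3p had 27193 and 26723 CPM in hypothalamus, against 63894 and 58858 CPM in cortex, 2.28-fold lower (log2 change -1.19 ± 0.08 SE, adjusted p = 7e-06), and miR-124-5p was 2.94-fold lower. miR-9-5p had 12333 and 11017 CPM in hypothalamus, against 27162 and 25837 CPM in cortex, 2.27-fold lower (log2 change -1.18 ± 0.11 SE, adjusted p = 2.2e-05). miR-9-3p, the other strand of the same hairpins, had 7135 and 6609 CPM in hypothalamus, against 6927 and 7714 CPM in cortex, which overlapped (adjusted p = 0.55), while median-ratio scaling called it lower (adjusted p = 0.0034). Of the list of miRNAs known from synapses, 3 of 8 tested strands fell and 1 rose, beside 57 and 68 of 325 miRNAs counted in this way. miR-138-5p, a regulator of dendritic spines, was 2.26-fold lower, and miR-218-5p 1.98-fold lower. miR-134-5p, which limits spine size, had 136.7 and 158.6 CPM in hypothalamus, against 33.3 and 40.0 CPM in cortex, and rose 4.03-fold. miR-137-3p and miR-153-3p did not pass (adjusted p = 0.52 and 0.67 in limma).

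**Figure D3:**
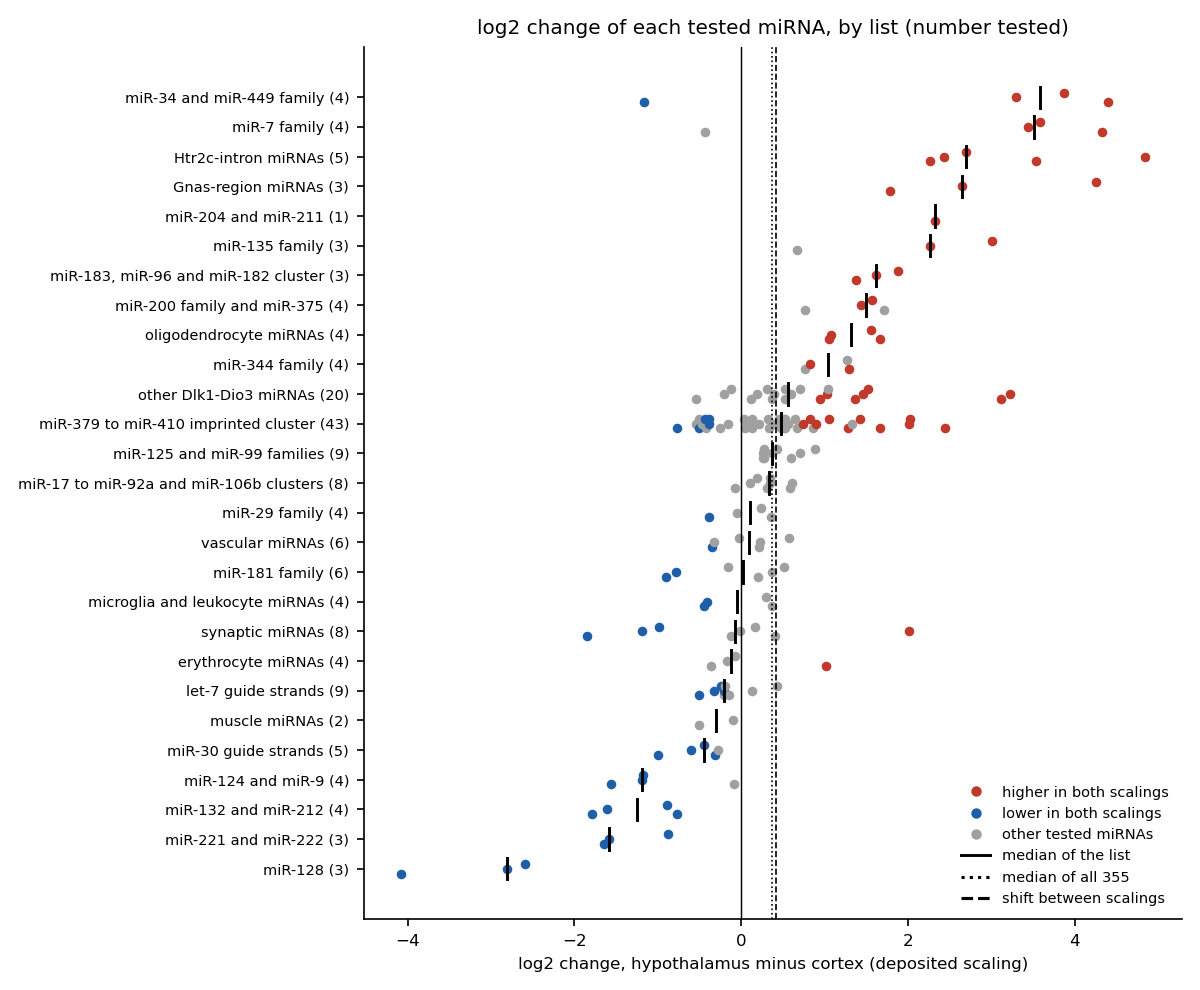
log2 change of each tested miRNA, hypothalamus minus cortex on the deposited scale, in the 27 lists ordered by median (black bars; number tested in brackets, miRNAs that passed the minimum through 1 tissue alone included). Red and blue mark miRNAs that rose or fell in both scalings, and the dotted and dashed lines mark the median of all 355 miRNAs (0.37) and the shift between scalings (0.42). The miR-34, miR-7, Htr2c and Gnas lists lie to the right and the miR-128, miR-221 and miR-132 lists to the left. Without miRNAs that passed through 1 tissue alone, the miR-34 list has a median of 1.06, with 1 strand higher and 1 lower. The miR-128 list then keeps 1 strand, at -2.59.

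Of the families that are abundant in most cells, let-7 and miR-30 held members that fell. Of 9 let-7 guide strands, which come from the family that restrains growth genes, 4 fell, beside 57 of 325 miRNAs counted in this way. let-7a-5p had 13948 and 14423 CPM in hypothalamus, against 18048 and 17259 CPM in cortex, 1.24-fold lower. The deposited scale called 5 of the 9 in either direction, but 0 without hypothalamus replicate 1, 2 without hypothalamus replicate 2, 2 without cortex replicate 1 and 1 without cortex replicate 2, and quantile normalization set let-7a-5p at a log2 change of 0.00. Of 5 miR-30 guide strands 4 fell, and 2 of the 5 were called when hypothalamus replicate 2 or either cortex replicate was left out. miR-30a-5p had 10983 and 10116 CPM in hypothalamus, against 22287 and 20009 CPM in cortex, 2.0-fold lower (adjusted p = 7.4e-05). miR-26a-5p, the most abundant miRNA of both tissues, had 128229 and 131804 CPM in hypothalamus, against 166485 and 159968 CPM in cortex. It was 1.26-fold lower. Quantile normalization gives the first-ranked miRNA of every library the same value. Its log2 change of 0.00 there was fixed by its rank and cannot show whether the fall depends on scaling. Of the miR-125 family, homologues of worm lin-4, and the miR-99 family, 7 of 9 strands were higher on the deposited scale and 0 with median-ratio scaling, and 3 were called without hypothalamus replicate 2. miR-125b-5p had 60522 and 57716 CPM in hypothalamus, against 35910 and 42133 CPM in cortex, with a log2 change of 0.60 on the deposited scale and 0.18 with median-ratio scaling (adjusted p = 0.11).

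Of the miR-181 family 2 of 6 strands fell, and the deposited scale called 4 with all libraries and 2 without cortex replicate 2. miR-181a-5p had 4803 and 4666 CPM in hypothalamus, against 8544 and 7750 CPM in cortex, 1.72-fold lower. Of the miR-29 family 1 of 4 strands fell, miR-29a-3p, which was 1.31-fold lower and did not pass without hypothalamus replicate 2 (adjusted p = 0.073) or cortex replicate 2 (adjusted p = 0.063). Of the miR-344 family 2 of 4 strands rose, and the deposited scale called 4 with all libraries and 2 without cortex replicate 2. miR-344-3p had 237.5 and 198.7 CPM in hypothalamus, against 101.1 and 77.5 CPM in cortex, 2.44-fold higher. In the clusters of miR-17, miR-92a and miR-106b, which are tied to cell growth, 0 of 8 strands rose or fell in both scalings in limma. The deposited scale called 1, miR-92a-3p. Beside the counts of these 4 lists, 68 of 325 miRNAs counted in this way rose and 57 fell.

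Among seed families with at least 2 listed members, the sums with the smallest p also included that of miR-148a-3p, miR-148b-3p and miR-152-3p. With the seed CAGUGCA they had 10320 and 10340 CPM in hypothalamus, against 4967 and 4994 CPM in cortex, 2.07-fold higher. Of these only miR-148a-3p rose, with 7851.6 and 7929.7 CPM in hypothalamus, against 2511.7 and 2714.1 CPM in cortex. miR-148b-3p had 2248.5 and 2167.2 CPM in hypothalamus, against 2284.5 and 2101.6 CPM in cortex. Neither it nor miR-152-3p was called in both scalings. Across all 247 seeds, 146 sums passed (59.1%). The seed of the miR-16 and miR-15 miRNAs, known for restraining the cell cycle, was named after its values were seen. It stood at 1421 and 1562 CPM in hypothalamus, against 3048 and 2926 CPM in cortex, 2.0-fold lower. Within that family miR-16-5p and miR-195a-5p fell, and miR-15b-5p did not pass (40.3 and 41.9 CPM in hypothalamus, against 29.7 and 36.9 CPM in cortex, adjusted p = 0.20 in limma).

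Chromosome 12 holds the imprinted Dlk1-Dio3 region, where long noncoding RNAs and many miRNAs are made from the maternal chromosome. At its start, in an exon of Meg3, lies Mir770 (chromosome 12, 109563692 to 109563785). miR-770-5p had 478.2 and 569.3 CPM in hypothalamus, against 49.9 and 73.4 CPM in cortex, 8.50-fold higher (log2 change 3.11 ± 0.19 SE, adjusted p = 3.2e-06), and miR-770-3p, which passed the minimum through hypothalamus alone, was 9.45-fold higher. miR-127-3p and miR-433-3p lie antisense to an exon of Rtl1. miR-127-3p had 96741 and 103148 CPM in hypothalamus, against 51303 and 53043 CPM in cortex, 1.92-fold higher, and miR-433-3p rose 2.88-fold. miR-434-3p of the same stretch was 1.29-fold higher on the deposited scale and had a log2 change of -0.06 with median-ratio scaling. Of the 19 strands in the region outside the miR-379 cluster, those named above included and miR-770-3p left out, 6 rose and 0 fell in both scalings. Of all miRNAs counted in this way, 68 of 325 rose and 57 fell. The median log2 change of the 19 was 0.53, beside 0.32. Median-ratio scaling by itself called 3 of the 20 tested strands of this list lower.

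Within the miR-379 to miR-410 cluster, 10 of 43 tested strands rose (23.3%) and 5 fell (11.6%). None of the 43 passed the minimum through 1 tissue alone. Of all miRNAs counted in this way, 68 of 325 rose and 57 fell. The median log2 change of the 43 was 0.48, beside 0.32. The share that rose is near that of all miRNAs. The deposited scale alone called 24, against 15 without hypothalamus replicate 1. miR-666-5p had 330.9 and 294.7 CPM in hypothalamus, against 49.1 and 67.3 CPM in cortex, 5.37-fold higher. miR-410-3p rose 1.86-fold and miR-300-3p 1.68-fold, the second not passing under quantile normalization (adjusted p = 0.075). miR-409-5p had 6160 and 6152 CPM in hypothalamus, against 7911 and 8099 CPM in cortex, and fell 1.30-fold (log2 change -0.38 ± 0.08 SE, adjusted p = 0.0035). miR-379-5p, miR-541-5p and miR-381-3p were not called in both scalings (log2 changes of 0.13, 0.21 and 0.51).

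**Figure D4:**
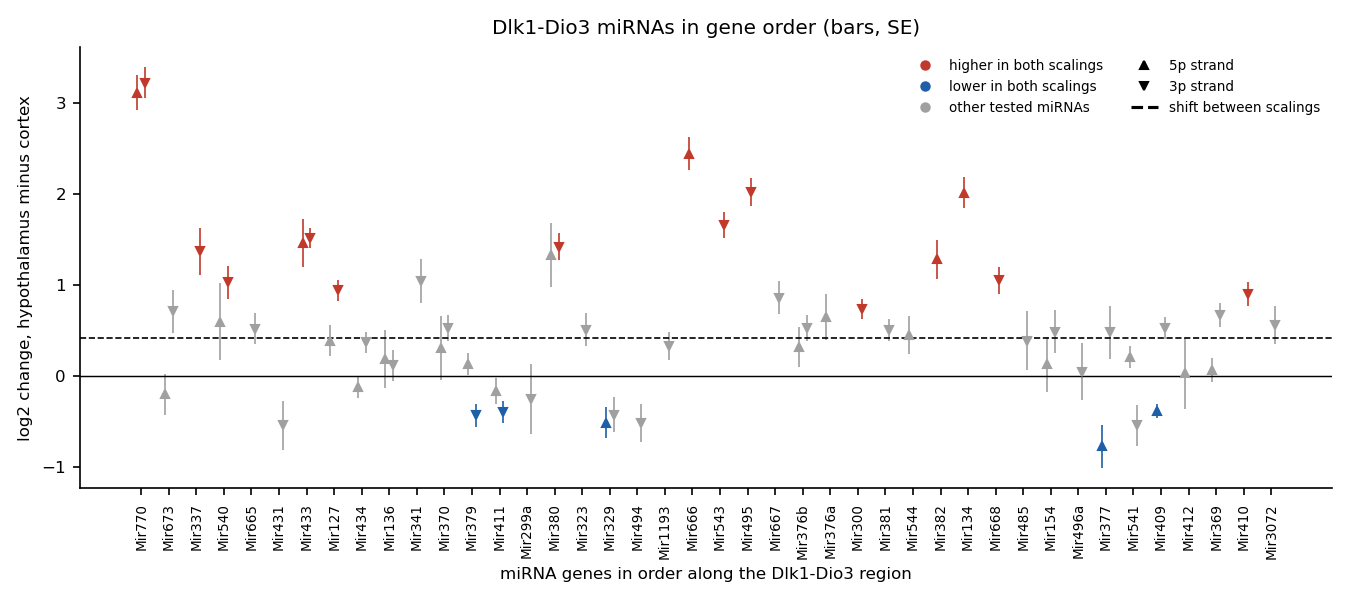
log2 change, hypothalamus minus cortex on the deposited scale, of 60 strands from 42 miRNA genes of the Dlk1-Dio3 region in their order along chromosome 12 (bars, SE of the model; triangles up, 5p strands; triangles down, 3p strands). Red marks strands that rose in both scalings and blue those that fell; the dashed line is the shift of 0.42. Strands of Mir770 stand highest, and rises, falls and strands near the dashed line alternate along the miR-379 cluster.

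The share of the 2 arms of a hairpin is free of the scaling between libraries. It was tested in 81 hairpins with both arms among the members, and 11 passed (13.6%), 3 with a higher 5p share and 8 with a higher 3p share in hypothalamus. The hairpin Mir409 is shown because its ratio had the smallest p, with the 5p and then the 3p arm in capitals (chromosome 12, 109743158 to 109743236, plus strand).
Mir409: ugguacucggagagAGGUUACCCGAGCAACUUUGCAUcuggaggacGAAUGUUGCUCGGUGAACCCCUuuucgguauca
The 5p level over the 3p level of miR-409 was 14.4 and 14.2 in hypothalamus, against 27.1 and 26.5 in cortex, a log2 change of -0.91 ± 0.13 SE (adjusted p = 0.0043). For miR-9 the ratio was 1.73 and 1.67 in hypothalamus, against 3.92 and 3.35 in cortex, a log2 change of -1.09 ± 0.20 SE (adjusted p = 0.016). The libraries did not overlap in either case. The ratio of miR-708 was 1.12 and 1.41 in hypothalamus, against 2.69 and 2.55 in cortex. The leading arm changed in miR-377, whose 5p over 3p ratio was 0.602 and 0.620 in hypothalamus, against 1.58 and 1.34 in cortex, and in miR-673, with 0.788 and 0.853 in hypothalamus, against 1.38 and 1.73 in cortex. miR-361 went the other way, with 58.8 and 62.1 in hypothalamus, against 37.9 and 31.7 in cortex. With 1 library fewer, 3 ratios passed without hypothalamus replicate 1, 3 without hypothalamus replicate 2, and 0 when either cortex replicate was left out. Without cortex replicate 2, miR-409 kept a log2 change of -0.93 (adjusted p = 0.13), and without cortex replicate 1 miR-9 one of -0.98 (adjusted p = 0.16).

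**Figure D5:**
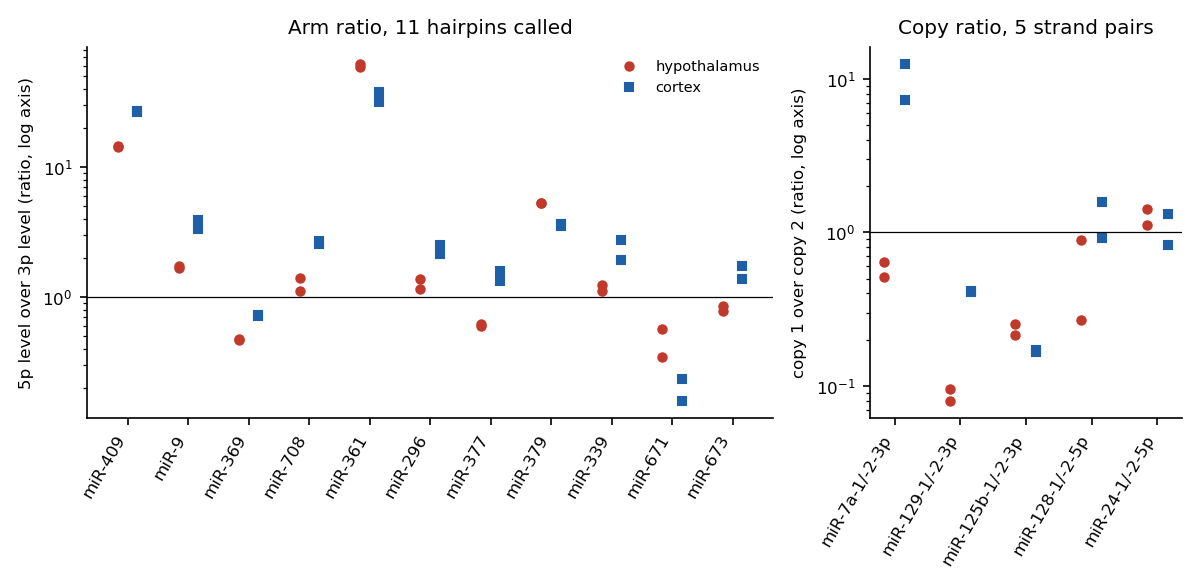
Left, 5p level over 3p level in each library (log axis) for the 11 hairpins whose ratio passed; right, level of the strand from copy 1 over that from copy 2 for 5 pairs. Hypothalamus is in red circles and cortex in blue squares, and the line marks a ratio of 1. The miR-377 and miR-673 ratios lie below 1 in hypothalamus and above 1 in cortex, as does the copy ratio of miR-7a-3p.

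Markers of other cells moved in part with the tissues. miR-219 and miR-338, miRNAs of oligodendrocytes, the cells that make myelin, rose in 4 of 4 tested strands (beside 68 of 325 miRNAs counted in this way). Over all listed strands their sum was 4186 and 3568 CPM in hypothalamus, against 1953 and 1458 CPM in cortex. miR-219-2-3p had 1019 and 916.3 CPM in hypothalamus, against 328.2 and 281.5 CPM in cortex, 3.17-fold higher, and miR-338-3p was 2.04-fold higher. miR-219-5p rose 3.04-fold (adjusted p = 0.012), but did not pass without hypothalamus replicate 1 (adjusted p = 0.069) or cortex replicate 2 (adjusted p = 0.086). Under quantile normalization miR-338-3p (adjusted p = 0.12), miR-338-5p (0.091) and miR-219-5p (0.12) did not pass in limma, and with no minimum level miR-219-5p did not (0.060). The part of this cell type in the other changes was not tested.

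Erythrocyte miRNAs summed to 553.7 and 896.3 CPM in hypothalamus, against 517.6 and 645.1 CPM in cortex, which overlapped. Of these 1 of 4 rose, near the share of all miRNAs (68 of 325). It was miR-486-5p (2.0-fold), which cannot be separated from miR-3107-5p and did not pass in limma under quantile normalization (adjusted p = 0.14). Vascular miRNAs summed to 11120 and 11840 CPM in hypothalamus, against 11030 and 11560 CPM in cortex, which overlapped. In that list 1 of 6 fell, near the share of all miRNAs (57 of 325), and it was miR-126-3p. With 1 library left out it passed without cortex replicate 1 alone (adjusted p = 0.031). Microglia and leukocyte miRNAs summed to 3897 and 3908 CPM in hypothalamus, against 4420 and 4546 CPM in cortex, with 2 of 3 lower, miR-146a-5p and miR-150-5p, leaving out miR-142-5p, which passed the minimum through hypothalamus alone, 1 called when either hypothalamus replicate was left out and 0 without cortex replicate 2. Muscle miRNAs summed to 325.1 and 317.2 CPM in hypothalamus, against 465.2 and 400.0 CPM in cortex, with 0 of 2 called in limma (adjusted p = 0.12 for miR-1a-3p and 0.74 for miR-133a-3p) and 1 lower with median-ratio scaling. miR-204-5p, the strand shared with choroid plexus, is given above.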

How the data were processed

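Small-RNA libraries of mouse brain tissue were used as deposited. The authors' files give a signal per mature miRNA: whole numbers, reads scaled to 10000000 per library, as the deposited values show. Bowtie and the builds GRCm38 and mm10 are named, with no version or role, per the submitters' processing notes. Trimming and allowed mismatches are not given in the sources used here. In each library the values were whole multiples of the worth of 1 read, rounded down to a whole number, which gave the reads per library. Levels in CPM are the signal divided by 10, and miRNAs not listed were taken as 0. Samples were grouped by title.

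log2(signal + 1) was fitted with limma 3.58.1 (R 4.3.3, trended variance) over 3 tissues with 2 libraries each. The contrast was hypothalamus minus cortex, two-sided, with Benjamini-Hochberg adjustment over all 355 miRNAs. The fit was repeated with median-ratio factors, taken over all 6 tissue libraries, SCN included. Arm ratios and seed sums were fitted likewise. Folds are ratios of mean CPM. The fits were also run on simulated data, in which every miRNA had the same spread beyond counting error and SCN the same levels as cortex. These settings differ from the real libraries, so that run was a check of the code only. Entries that share reads were tested as separate miRNAs: let-7a-1-3p with let-7c-2-3p, miR-199a-3p with miR-199b-3p, and miR-486-5p with miR-3107-5p. Mature sequences from RefSeq (GRCm38.p6) matched 303 of 355 miRNAs, and hosts came from GENCODE M21.

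Named are the 15 largest rises and 15 largest falls called in both scalings, without overlap and with a mean of at least 50 CPM in the higher tissue, the 10 most abundant miRNAs of each tissue, up to 6 of each list by level, and the 8 hairpins and 8 seed families with the smallest p. Others were named after their values were seen. The members and lists were chosen with earlier results of these data known. Alternatives tried were other scalings, filters and pseudocounts, leaving out each library, the 4 libraries alone and a replicate block.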

Additional observations from a re-analysis of the deposited data

How the results depend on the processing

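With 2 libraries per tissue, small changes hang on single libraries. The 30 largest rises and falls kept their direction under every alternative run in which they were tested. They were chosen as called in both scalings and without overlap. Their call with median-ratio scaling and their direction with 1 library left out were therefore fixed in advance. Of the 15 rises 3, and of the 15 falls 2, passed the minimum through 1 tissue alone and are given no test. The others kept their call with TMM scaling, quantile normalization and a replicate block. Of 355 miRNAs, 103 were called in one scaling alone, against 147 in both. Higher calls numbered 147 on the deposited scale, 87 with median-ratio scaling, 81 with quantile normalization, and lower calls numbered 60, against 103 with median-ratio scaling. A minimum of 1000, with 198 tested, gave 135 calls, 89 of them higher. Of 76 named miRNAs called in both scalings, quantile normalization ended the call of 12, dropping the minimum that of 6 and a replicate block that of 2, let-7f-5p (adjusted p = 0.060) and let-7i-5p (0.067). Leaving out 1 library gave 168 to 179 calls. Median-ratio scaling turned the sign of 63 of the 355, 23 of them named. For the 6 of these called on either scale the log2 change turned to -0.06 for miR-100-5p, -0.05 for miR-181d-5p, -0.39 for miR-191-5p, -0.06 for miR-434-3p, -0.16 for miR-99a-5p and -0.15 for miR-99b-5p. Under TMM scaling it turned to -0.27 for miR-191-5p, -0.04 for miR-99a-5p and -0.03 for miR-99b-5p. Under quantile normalization it turned to 0.00 for let-7a-5p and miR-26a-5p, -0.13 for miR-181d-5p and -0.18 for miR-99a-5p. The value of miR-26a-5p there was fixed by its first rank in each of the 4 libraries, and so was the end of its call. Arm ratios passed in 11 hairpins, in 18 with the 4 libraries alone, in 5 with both arms at 1000 or more, and in 0 to 3 with 1 library left out. The replicate numbers are not said to pair libraries, and the differences between replicates of the 2 tissues correlated with r of -0.03 across miRNAs; a replicate block gave 211 calls, 15 arm ratios and 156 seed sums, against 207, 11 and 146 without it. The files hold scaled values, from which the reads per library could be recovered, but tests on counts were not run. The cause of these shifts was not tested.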

Other observations

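Below the minimum level, 38 miRNAs were listed in both libraries of one tissue and at 0 in both of the other, 29 in hypothalamus and 9 in cortex. miR-669f-3p had 3.0 and 3.6 CPM in hypothalamus, and miR-218-1-3p 2.6 and 2.7 CPM, against 0 in cortex. These levels are a few reads each and were given no test. Leaving out miRNAs that passed the minimum through 1 tissue alone, 12 of 25 on chromosome X rose and 3 fell, with a median log2 change of 0.80, beside 68 and 57 of 325 and a median of 0.32 for all. On chromosome 6, 5 of 10 rose and 1 fell, with a median of 1.46. On chromosome 13, 0 of 10 rose and 3 fell, with a median of -0.34. The count for chromosome X includes Htr2c strands given above. Chromosome counts cover only miRNAs with a RefSeq sequence and 1 hairpin copy, while the 325 have no such limit. The miRNAs that rose had a median GC content of 47.9% and those that fell one of 47.8%, over the 72 and 51 with a sequence, beside 47.6% for all.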
